A study of Mus musculus with 21 samples.

Results

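The germ cell piRNAs described here are 4038 of the 58900 piRNA entries in a small RNA table of 61628 entries from mouse testicular and smooth muscle cells. They were chosen by their own level: the mean rate over the 3 germ cell (Germ) libraries had to be at least 10, and at least 10 times the mean over the 18 libraries of other cell types. A rate is an entry's count per 1000000 counts of all small RNA classes in its library, written rpm below. The rule took 6.86% of the piRNA entries. All cells were of the C57BL/6J strain and untreated, and were grown in DMEM/F12 medium with serum, which the germ cells shared with the rest. The 7 types were Germ, peritubular myoid (PTM), Sertoli and Leydig cells of the testis, and smooth muscle cells of 3 other tissues, vascular (VSMC), intestinal (ISMC) and tracheal (TSMC), with 3 libraries each. The testicular cells were isolated as primary cells, those of smooth muscle were obtained from a commercial supplier, and neither the stage of the germ cells nor the age of the mice is given. The labels leave unsaid whether libraries of 1 type stem from different animals or cultures, so a p-value below measures only the spread between these libraries, which may be technical. Library totals were 18.1 to 26.1 M counts (M, 1000000), and the Germ libraries held 25.2 to 26.1 M.

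piRNAs are small RNAs bound by PIWI proteins, and in the male germ line they silence transposons and other transcripts. In the mouse testis the PIWI proteins are MIWI, MIWI2 and MILI. Their piRNAs are cut from long single-stranded precursors transcribed from piRNA clusters. Pachytene piRNAs, made during meiosis, are the most abundant kind in the adult testis, and the transcription factor A-MYB is known to drive their precursors.

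The members were of 2 kinds. Of 32549 catalogued piRNAs (named mmu_piR and a number, with no position or sequence in the table), 3655 were members (11.2%). Of 26351 predicted entries, each named for the repeat copy it lies in, 383 were members (1.45%). The predicted entries were listed on 3413 repeat copies, and the 383 members lay on 166 of them. Each copy carried 1 strand in the table, and 0 of 3413 copies appeared on both. Whether the listed strand is that of the copy or of the small RNA is not stated. The 2 kinds also differed at low counts. Among values above 0, 56.7% of 120950 catalogued values were counts of 1 to 9, against 0 of 64149 predicted values, whose smallest count was 10. A predicted entry listed at 0 can thus have had up to 9 reads, so low levels of predicted members below can be too low. Sums over all members include them.

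The sequences that follow show where predicted members came from. The repeat copy with the most members, an ERVL-MaLR element (a long terminal repeat of an endogenous retrovirus) at chr17:27357624-27357964 listed on the minus strand, held 19 members and 966 rpm of summed mean Germ rate. It lay in an exon of the long non-coding RNA Gm49794, and its first 300 bases, chr17:27357624-27357923 on the plus strand as in the Gm49794 transcript (GENCODE vM21, GRCm38), read as follows.
Gm49794 exon: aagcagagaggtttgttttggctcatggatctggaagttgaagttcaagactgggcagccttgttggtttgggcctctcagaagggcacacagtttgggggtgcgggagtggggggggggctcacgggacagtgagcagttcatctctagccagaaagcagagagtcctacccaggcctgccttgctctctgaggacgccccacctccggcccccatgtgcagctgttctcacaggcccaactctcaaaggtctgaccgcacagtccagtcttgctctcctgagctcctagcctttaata

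Promoters of non-coding genes at the member loci were read from RefSeq (GRCm38.p6), from 250 bases before to 50 after the start of the gene. The capitals mark the word NAACNG, with C or T for the first N and G or T for the other, the core recognised by the MYB factors, on either strand. The first promoter is that of Gm10619 (chr7:73816454-73816753, minus strand), a long non-coding RNA transcribed away from Gm21269. The other 2 are the 2 RefSeq starts of Gm10505 on the plus strand (chr17:27324946-27325245 and chr17:27342210-27342509), in the locus with the most members.
Gm10619 promoter: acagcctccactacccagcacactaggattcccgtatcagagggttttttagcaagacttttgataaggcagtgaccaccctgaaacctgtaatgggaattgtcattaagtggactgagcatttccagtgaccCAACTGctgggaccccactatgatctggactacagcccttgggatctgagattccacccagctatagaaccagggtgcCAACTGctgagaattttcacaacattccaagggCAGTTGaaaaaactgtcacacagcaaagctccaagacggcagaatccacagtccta
Gm10505 first promoter: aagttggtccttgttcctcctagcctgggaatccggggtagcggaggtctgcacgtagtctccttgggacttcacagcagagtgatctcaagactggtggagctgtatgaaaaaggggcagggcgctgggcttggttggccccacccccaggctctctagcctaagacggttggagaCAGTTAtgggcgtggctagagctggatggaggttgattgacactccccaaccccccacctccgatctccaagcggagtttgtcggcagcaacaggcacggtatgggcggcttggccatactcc
Gm10505 second promoter: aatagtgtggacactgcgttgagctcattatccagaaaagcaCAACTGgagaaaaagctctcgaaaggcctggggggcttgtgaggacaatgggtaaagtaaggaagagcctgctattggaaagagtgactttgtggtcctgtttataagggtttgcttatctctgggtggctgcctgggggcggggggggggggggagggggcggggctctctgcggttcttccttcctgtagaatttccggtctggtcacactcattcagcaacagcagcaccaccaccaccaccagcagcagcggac

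The words began at positions 134, 212 and 245 of the Gm10619 promoter, counted from 1 at its 5′ end, and at position 178 of the first and 43 of the second Gm10505 promoter. Over 32851 RefSeq promoters of the same length, 28.3% held at least 1 such word and 0.743% held at least 3. Of the 5 RefSeq promoters inside the 19 richest loci, 3 held at least 1. A match of letters is a description of the window and not a binding site.

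Before any level is compared, the second Germ library has to be set apart. The members made up 21.7% of all counts in Germ 1, 11.9% in Germ 2 and 21.3% in Germ 3. The piRNA class as a whole took 28.4%, 15.9% and 28.5% of counts, while mature miRNAs took 2.02%, 3.80% and 2.95%. Germ 1 and Germ 3 ranked the members alike (Spearman correlation 0.828 over 4038 members), whereas the correlation was 0.282 between Germ 1 and Germ 2 and 0.192 between Germ 2 and Germ 3. Over the 138 mature miRNAs with a mean Germ rate of at least 10, the same correlations were 0.812, 0.830 and 0.685. These correlations are across entries of the same libraries, and entries are not independent replicates.

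Member by member, the difference was not a common shift. Across members the ratio of Germ 1 to Germ 3 had a median of 1, and its 5th and 95th percentiles were 0.541 and 2.05. The ratio of Germ 2 to the mean of Germ 1 and Germ 3 had a median of 0.294, with 5th and 95th percentiles of 0.0290 and 2.71, and its histogram had 2 peaks. It lay below 0.1 for 1347 members (33.4%), between 0.1 and 1 for 1571 (38.9%) and at 1 or above for 1120 (27.7%). The members below 0.1 held 41.1% of the summed member rate in Germ 1 and Germ 3 and 3.65% in Germ 2, and those at 1 or above held 20.1% and 68.3%. None of the 138 miRNAs had a ratio below 0.1. Their median ratio was 1.31.

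**Figure D1:**
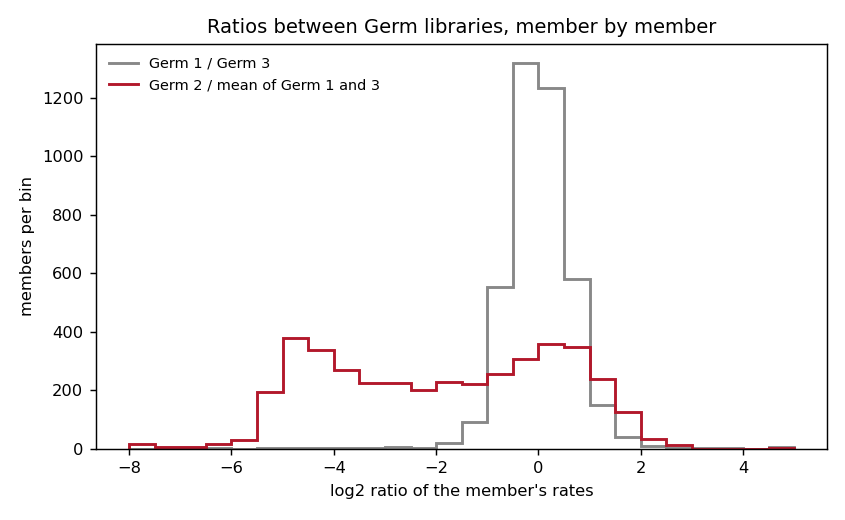
Number of members (y axis) by log2 ratio of their rates (x axis, bins of 0.5) for Germ 1 over Germ 3 and for Germ 2 over the mean of Germ 1 and Germ 3, with ratios under the axis range counted in the lowest bin. Ratios of Germ 1 over Germ 3 above the range were counted in the highest bin, which held 7 members. The first histogram has a single peak around 0 and the second has one peak between -5 and -4 and another between 0 and 1, with 380 and 360 members in their highest bins.

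Catalogued and predicted members both showed this, in unlike shares. Of the 3655 catalogued members 34.5% lay below 0.1 and 25.2% at 1 or above, and of the 383 predicted members 22.7% and 52.2%. It also ran through single repeat copies: of 76 copies with at least 2 members, 23 held at least 1 member below 0.1 and at least 1 at 1 or above. In the ERVL-MaLR copy printed above, the 19 members spanned ratios from 0.0437 to 3.26. The labels give the 3 Germ libraries the same description, and the source of the difference was not tested.

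The member set itself was therefore also drawn without Germ 2. Germ 1 and Germ 3 alone gave 4623 members, of which 3849 were shared with the 4038. Of these 4623, 4576 (98.98%) were higher in Germ 2, which then had no part in choosing them, than in the highest of the 18 other libraries. Leaving out Germ 1 or Germ 3 instead gave 3663 and 3608 members, and 99.9% and 99.8% of them were above the highest other library in the Germ library left out. A rate of 10 in the library left out was reached by 1826 of the 4623 for Germ 2. For Germ 1 and Germ 3 it was reached by 3360 of the 3663 and 3203 of the 3608. The 18 other libraries had a part in each of these choices, which favour low values there. The counts above the highest other library were thus largely fixed, and they describe the Germ side only.

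Levels in germ cells were spread over many members. The mean Germ rate had a median of 21.8 rpm, quartiles of 14.1 and 42.6 rpm and a maximum of 1825 rpm. The 10 highest members held 6.11% of the summed mean rate, 475 members held 50% of it and 2610 held 90%. Within Germ 1, Germ 2 and Germ 3, 449, 269 and 458 members held 50%. The 100 highest members of Germ 1 and of Germ 3 had 74 in common, and those of Germ 1 and Germ 2 had 26.

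mmu_piR_021777 had the highest mean rate, with 3118, 82.4 and 2274 rpm in the 3 Germ libraries (counts of 80880, 2076 and 59298). In the other 18 libraries it ran from 0.219 to 6.76 rpm with a median of 0.681. mmu_piR_015400 stood at 1583, 676 and 2042 rpm in the Germ libraries and at 0 to 2.11 rpm elsewhere. Both were lowest in Germ 2 among the Germ libraries, and no other library came near the Germ values.

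mmu_piR_032165 was the most even of the 10 highest, with 788, 909 and 880 rpm, and lay between 0.0434 and 2.79 rpm elsewhere. mmu_piR_037358 stood at 1114, 663 and 716 rpm, and its highest value outside germ cells was 10.6 rpm in PTM 3. mmu_piR_010508 stood at 1125, 30.2 and 923 rpm. For 6 of the 10, Germ 2 was below 0.1 of the mean of the other Germ libraries, and for all 10 the highest value outside germ cells was in a PTM library.

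**Figure D2:**
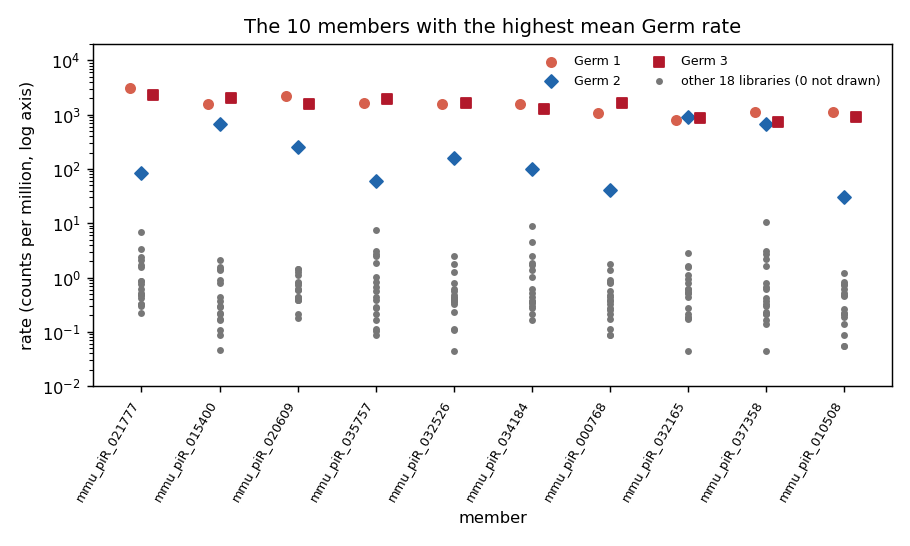
Rate in rpm (log axis) of the 10 members with the highest mean Germ rate, with 1 point per library and the 18 other libraries in grey (values of 0 not drawn). Germ 1 and Germ 3 lie between 716 and 3118 rpm for each member, Germ 2 falls as low as 30.2 rpm, and the highest grey point is 10.6 rpm.

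Single members differed between Germ libraries in other ways as well. Among the 2662 members with at least 100 counts in every Germ library, the largest coefficients of variation belonged to members that were high in Germ 3 alone. mmu_piR_027340 stood at 8.48, 5.08 and 140 rpm in Germ 1, 2 and 3, mmu_piR_006880 at 14.3, 14.9 and 275 rpm, and mmu_piR_029475 at 8.02, 4.92 and 93.5 rpm. At the other end, mmu_piR_036882 stood at 20.4, 20.7 and 20.2 rpm, mmu_piR_029901 at 13.2, 13.1 and 13.5 rpm, and mmu_piR_002176 at 29.4, 28.8 and 28.4 rpm.

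Outside germ cells most members were rare. Of 4038 members, 407 had no count in any of the 18 libraries, and the mean rate over the 18 had a median of 0.0248 rpm. The lowest Germ library was above the highest other library for 4018 members, which the choice of members largely fixes. Where the mean of the others was above 0, the ratio of means had a median of 915 and was at least 100 for 3602 of 3631 members.

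At the edges of the rule, mmu_piR_016620, mmu_piR_001953 and mmu_piR_012593 were just inside the rate of 10, with means of 10.00, 10.00 and 10.01 rpm, and novel_pir24067, mmu_piR_027990 and mmu_piR_032978 just outside with 9.996, 9.996 and 9.994 rpm. For the ratio, mmu_piR_031037, mmu_piR_009082 and mmu_piR_024749 were just inside, at 10.4, 13.6 and 20.3 times the mean of the others. novel_pir16511, mmu_piR_024221 and mmu_piR_001526 were just outside at 8.68, 7.47 and 7.33 times. The rate removed nearly all entries that failed: 4096 entries reached it, and 58 of these failed on the ratio alone.

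The members' positions and repeat families had no part in the rule. Of the 383 predicted members, 145 (37.9%) lay in ERVL-MaLR elements, against 23.2% of all predicted entries. ERVK elements held 74 members (19.3%, against 23.1%), ERV1 41 (10.7%, against 13.2%), ERVL 36 (9.40%, against 10.5%) and the ancient L2 elements 22 (5.74%, against 3.01%). LINE-1, an autonomous retrotransposon family still active in mice, held 38 (9.92%, against 21.6%). Counted by repeat copies, since members of a copy share their source, ERVL-MaLR made up 28.9% of the 166 member copies and 19.4% of all 3413, and LINE-1 14.5% and 22.9%. With the members chosen without Germ 2, ERVL-MaLR held 37.6% and LINE-1 11.5% of 399 predicted members. Within the ERVL-MaLR members the summed rates were 5796, 5011 and 5380 rpm in Germ 1, 2 and 3.

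By GENCODE vM21, 108 of the 166 member copies (65.1%) were intergenic, 23 (13.9%) lay in exons and 21 (12.7%) in introns of non-coding genes or pseudogenes, and 14 (8.43%) in introns of protein-coding genes. Of all 3413 copies, 60.7% were intergenic, and 5.65% were in exons and 8.29% in introns of such other genes. Introns of protein-coding genes held 22.6% of all copies. No member copy lay in an exon of a protein-coding gene, which held 2.72% of all copies. The copies were 46 to 1413 bases long, with a median of 317 bases, and 89 were on the plus and 77 on the minus strand.

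With copies less than 50 kb apart joined, the 383 predicted members fell into 61 loci, of which 26 held a single member. The 19 loci with at least 5 members held 311 (81.2%) of the predicted members and 84.4% of their Germ rate in 504 kb, where 41.5% of all 26351 predicted entries also lay. Of the 19, 17 overlapped no protein-coding gene and 12 held copies listed on both strands. Chromosome 17 had 84 members (21.9% of the predicted members, against 11.3% of all predicted entries) and chromosome 6 had 47 (12.3%, against 6.68%). Chromosome 5 had 38 (9.92%, against 8.02%) and chromosome 15 had 34 (8.88%, against 7.21%). Chromosome 10, with the most entries, had 29 (7.57%, against 19.5%). There were 0 members among 242 predicted entries on the X chromosome and 13 on the Y chromosome, and 0 among the 265, 476, 118 and 257 entries of chromosomes 1, 13, 16 and 19. Without Germ 2 there were 59 loci, 20 of them with at least 5 members, and these held 84.0% of the predicted members.

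The same places held many predicted entries that did not reach the rule. The 19 loci contained 10633 such entries, and 10621 (99.9%) of them were listed at 0 in all 18 other libraries. Of 15335 entries outside the rule and outside the loci, 11040 (72.0%) were listed at 0 there. The mean Germ rate was above the mean of the others for 99.9% of the first and 70.8% of the second. Since predicted counts under 10 are absent, 0 stands here for fewer than 10 reads.

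The locus with the most members, chr17:27290845-27365776, held all 84 members of chromosome 17 on 22 copies. Their summed rates were 2630, 3170 and 2450 rpm in Germ 1, 2 and 3. In PTM cells the mean was 5.86 rpm, and in Sertoli and Leydig cells 0.190 and 0.162 rpm. In the 9 smooth muscle libraries the members were listed at 0. Predicted counts under 10 are absent, so these low levels can be too low. It contained the non-coding genes Gm10505, Gm49793, Gm49794 and Gm49795 and, among others, the miRNA genes Mir7214, Mir7216 and Mir7217.

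The second, chr6:127786534-127837003, had 35 members with summed rates of 974, 809 and 834 rpm and contained Gm42811 and Mir7233. At chr9:67695320-67749481 there were 22 members with 749, 691 and 694 rpm, beside Mir7241 and Mir7242. At chr5:113319890-113354048 there were 22 members with 477, 528 and 638 rpm, beside Mir7229 and Mir7230. In these 3 loci the summed rates of the Germ libraries stayed close to each other although single members did not: 10, 7 and 3 members lay below the ratio of 0.1 and 17, 10 and 16 at 1 or above.

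Elsewhere Germ 2 stood apart for the locus as a whole. chr7:69886500-69930074, with 10 members and no annotated gene, had 1445, 231 and 1304 rpm, a Germ 2 ratio of 0.168. chr12:98395139-98438902, with 22 members, overlapped the end of Kcnk10, a potassium channel gene, and had 687, 263 and 790 rpm. chr9:54235642-54238765, with 6 members inside Cyp19a1, the aromatase gene, had 117, 240 and 96.9 rpm, a ratio of 2.25. The divergent pair Gm10619 and Gm21269 at chr7:73795129-73824252 had 7 members with 280, 410 and 287 rpm. In 16 of the 19 loci at least 1 member lay below 0.1 and at least 1 at 1 or above.

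**Figure D3:**
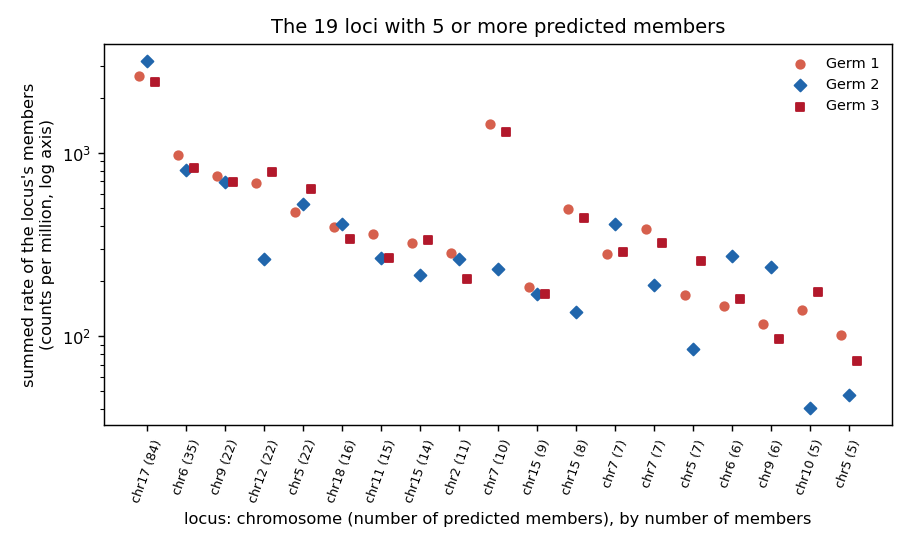
Summed rate in rpm (log axis) of the predicted members of each of the 19 loci with at least 5 members, with 1 point per Germ library. The chromosome 17 locus stands highest with 2450 to 3170 rpm, and Germ 2 lies lowest in the chromosome 7 locus with 10 members (231 rpm against 1304 and 1445).

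The loci also contain 10 miRNA hairpins with numbers from miR-7214 to miR-7242, in 5 loci, whose 20 mature miRNAs are separate entries of the table and had no part in the rule. Mature sequences, from RefSeq (GRCm38.p6), are given for 3 whose counts differed between the Germ libraries, with the seed (bases 2 to 8) in capitals. No seed is shared among them.
miR-7242-3p: uGGCAGCUcggcucuacucugg
miR-7229-3p: uACACAGAccagugacuuucugca
miR-7217-3p: uGAGAACCcacaagcaagaaga

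miR-7214-5p, from the minus strand at chr17:27317035-27317095, stood at 25.6, 56.7 and 42.5 rpm in Germ 1, 2 and 3. Its counts in the 18 other libraries came to 19 in all. The mean Germ rate of all 20 was above the mean of the others, and 11 had no count outside germ cells. Only 15 of them had at least 10 counts over the 3 Germ libraries.

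These miRNAs also differed between the Germ libraries in both directions. miR-7242-3p had 374, 2343 and 309 counts (14.4, 93.0 and 11.9 rpm) in Germ 1, 2 and 3, and was highest in Germ 2. miR-7229-3p had 142, 1 and 129 counts, and was nearly absent from Germ 2. miR-7217-3p had 92, 28 and 125 counts, and was lowest in Germ 2. The arms of a hairpin could differ: miR-7229-5p had 6, 6 and 7 counts.

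The next question was how much of the member set the other cell types held. Summed over the 4038 members the level was 216617, 119257 and 213042 rpm in the Germ libraries, and at most 1309 rpm elsewhere. PTM cells stood at 624, 1012 and 1309 rpm, Sertoli cells at 290, 255 and 144 rpm and Leydig cells at 427, 149 and 85.2 rpm. VSMC stood at 62.1, 58.6 and 63.6 rpm, ISMC at 96.6, 163 and 60.6 rpm and TSMC at 79.0, 88.7 and 103 rpm. The order of the means was Germ, PTM, Sertoli, Leydig, ISMC, TSMC and VSMC. On this scale the PTM libraries overlapped no other type. Sertoli overlapped Leydig and ISMC, Leydig overlapped ISMC and TSMC as well, and ISMC overlapped both TSMC and VSMC. In such bulk libraries fewer germ cells in a preparation and less piRNA per cell cannot be told apart.

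As a mean, PTM cells held 982 ± 344 rpm (SD, n = 3), or 0.537% of the Germ mean of 182972 ± 55207 rpm (214829 rpm without Germ 2). Sertoli cells held 230 ± 76.1 rpm, Leydig cells 221 ± 182 rpm, VSMC 61.5 ± 2.57 rpm, ISMC 107 ± 51.9 rpm and TSMC 90.3 ± 12.2 rpm. Without Leydig 1 the Leydig mean was 117 rpm. Of the piRNA counts of a library the members made up 74.8 to 76.2% in Germ cells, 2.73 to 4.97% in PTM cells, 0.648 to 1.18% in Sertoli cells, 0.590 to 3.10% in Leydig cells and 0.359 to 1.09% in smooth muscle cells. On this scale PTM and Leydig cells overlapped, since Leydig 1 at 3.10% stood above PTM 1 at 2.73%. Catalogued members alone gave 962 ± 340 rpm in PTM cells and the same 61.5 ± 2.57 rpm in VSMC. Predicted members were listed above 0 for 19 to 28 of 383 in PTM libraries, 2 to 4 in Sertoli, 1 to 7 in Leydig and 0 to 1 in smooth muscle libraries.

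**Figure D4:**
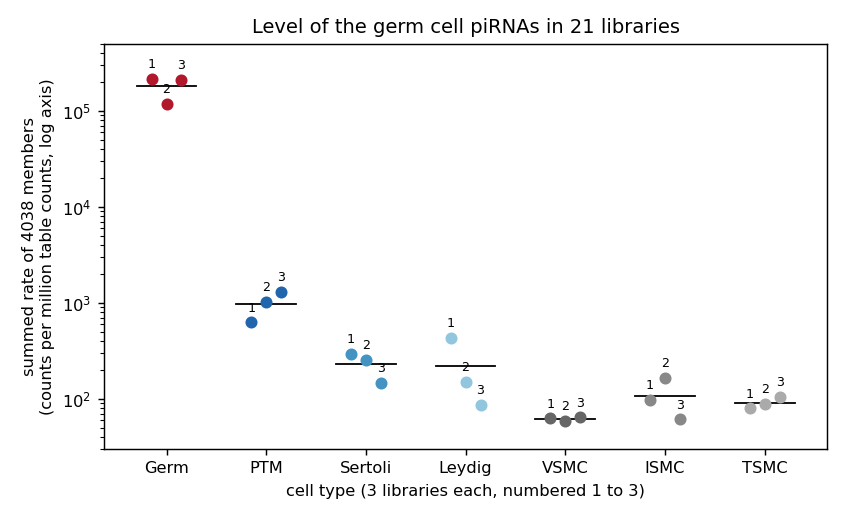
Summed rate of the 4038 members in rpm (log axis) in each of 21 libraries by cell type, numbered by replicate, with a line at the mean of 3 libraries. Germ libraries lie at 119257 rpm or above, PTM libraries at 624 to 1309 rpm and all others at or below 427 rpm.

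Values of marker miRNAs stand beside these levels. The germ cell list (miR-34b and miR-34c, both arms, and miR-449a-5p, known from meiotic and haploid germ cells) summed to 5486 to 9803 rpm in Germ libraries, 148 to 246 rpm in PTM and 176 to 562 rpm in smooth muscle libraries. Its sum was 107 to 313 rpm in Sertoli and 384 to 543 rpm in Leydig libraries. In PTM and in Sertoli cells 0 of its 5 members were above the smooth muscle mean, and in Leydig cells 4 were. Of the 5 members, miR-449a-5p had 3570 to 7235 rpm in Germ, 10.1 to 19.05 rpm in PTM and 8.83 to 42.8 rpm in smooth muscle libraries. miR-202, known from gonadal somatic cells, summed over its 2 arms to 264 to 495 rpm in PTM and 0.0941 to 0.607 rpm in smooth muscle libraries. The mesenchymal list (miR-143 and miR-145a, 3 of 4 above the smooth muscle mean in PTM cells) stood at 5865 to 10327 rpm in PTM, 2047 to 11902 rpm in smooth muscle and 23.9 to 135 rpm in Germ libraries. The blood list (4 of 4 above) stood at 121 to 275 and 22.8 to 118 rpm in PTM and smooth muscle libraries, and endothelial miR-126a (0 of 2 above) at 319 to 683 and 49.5 to 2238 rpm. miR-142a-3p of the blood list had 0 counts in at least 1 PTM library. In Sertoli libraries miR-202 stood at 78.1 to 539 rpm and the mesenchymal list at 6511 to 24621 rpm (4 of 4 above). In Leydig libraries they stood at 145 to 380 rpm and 1936 to 3164 rpm (0 of 4 above). The blood list had 1 of 4 above in Sertoli and 3 of 4 in Leydig cells, and miR-126a 0 of 2 in each. Apart from these values, the part of other cells in the member levels was not tested.

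The levels outside germ cells were also divided by the Germ 2 ratio of the members. The ratio was taken from the Germ libraries, so the Germ shares follow from the division and all shares are a description. Members at a Germ 2 ratio of 1 or above held 20.1% of the member rate in Germ 1 and 3 and 68.3% in Germ 2. They held 47.4% in PTM, 46.1% in Sertoli and 47.3% in Leydig cells, and 32.5%, 36.1% and 39.1% in VSMC, ISMC and TSMC. Those below 0.1 held 17.8%, 19.1% and 18.6% in the 3 testicular types and 29.5%, 25.4% and 20.7% in the smooth muscle types, against 41.1% in Germ 1 and 3 and 3.65% in Germ 2. With catalogued members alone, those at 1 or above held 47.2% in PTM cells and 32.5% in VSMC. Over the 4038 members the Spearman correlation of the VSMC mean was 0.496 with Germ 1, 0.306 with Germ 2 and 0.488 with Germ 3, and that of the PTM mean was 0.482, 0.497 and 0.390. In the same order Sertoli cells had 0.488, 0.444 and 0.427, and Leydig cells 0.419, 0.431 and 0.35. ISMC had 0.462, 0.354 and 0.457, and TSMC 0.433, 0.4 and 0.435. The points of each correlation share libraries and many are at 0.

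**Figure D5:**
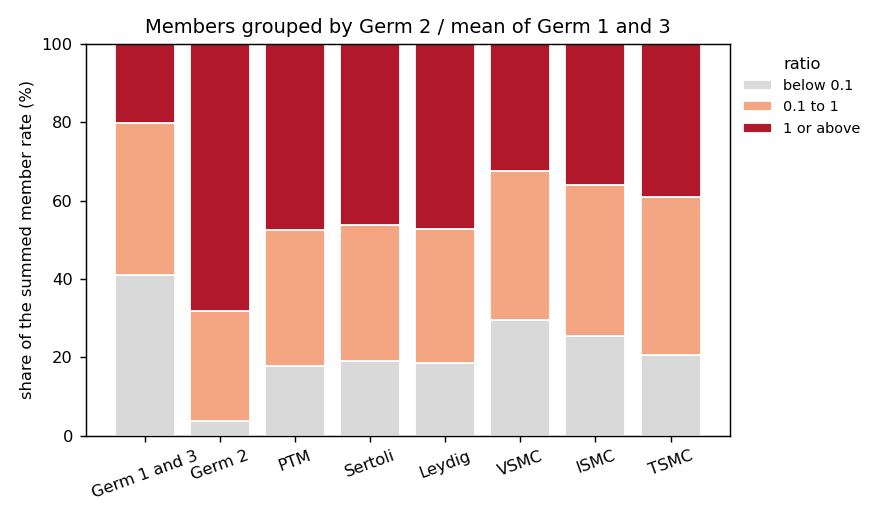
Share in percent (y axis) of the summed member rate held by members in 3 classes of the ratio of Germ 2 to the mean of Germ 1 and Germ 3, for the Germ libraries and the means of the other types. Members at a ratio of 1 or above hold 20.1% in Germ 1 and 3, 68.3% in Germ 2 and 32.5% to 47.4% in the other types.

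Differences among the 18 other libraries had no direct part in the rule and were tested entry by entry, with edgeR's quasi-likelihood test over all 3649 entries that had at least 10 counts in at least 3 of the 18 libraries, and Benjamini-Hochberg adjustment at 0.05. Only 303 of the 4038 members (7.50%) were tested, 10 of them predicted, and 3735 did not pass this minimum. Many passed the filter through PTM libraries: without those libraries 85 would have passed, and on the smooth muscle libraries alone 13. A member that passed in this way had to be higher in PTM cells, so the counts that follow describe those 303 and not the set. In contrasts of testicular with smooth muscle cells, cell type cannot be told apart from source (isolated against commercial).

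Against the 3 smooth muscle types, PTM cells were higher for 286 of the 303 tested members and lower for 0, where 37.2% of all 3649 entries were called higher. The median log2 difference was 4.54 over these members and 1.23 over all entries tested. With no filter, 834 of 3631 members with any count (23.0%) were called higher, and 19.1% of all 18331 entries. Of the 13 members that passed on the smooth muscle libraries alone, a choice made after the values were seen, 9 were called higher in PTM cells, against 17.1% of the 2275 entries that passed in this way. Leaving out a PTM library also left fewer members past the minimum: 179 of 213 tested were called without PTM 2, and 171 of 208 without PTM 3.

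The members named next all passed the minimum through testicular libraries, and mmu_piR_038356 and mmu_piR_038062 passed it through PTM libraries, having at least 10 counts in only 1 library outside PTM cells. The p-values of all of them were thus in part fixed by the minimum. Both mmu_piR_038356 and mmu_piR_038062 were also called for PTM cells with no filter. Among the 5 called members with the largest fitted difference, mmu_piR_031037 was the most abundant. It had 312, 273 and 204 counts (14.9, 14.4 and 9.86 rpm) in PTM libraries, 123, 271 and 58 in Sertoli libraries and 1, 5 and 8 in Leydig libraries. The smooth muscle libraries had 0 to 14 counts and 21 in all. PTM cells stood 7.86 ± 0.86 (log2, SE) above smooth muscle (edgeR adjusted p = 1.48e-05), and Sertoli cells 7.02 ± 0.85 (edgeR adjusted p = 3.33e-05). Its Germ rates were 21.2, 27.6 and 59.4 rpm, the lowest of them not far above the highest PTM rate, and it was the member nearest to the ratio of the rule.

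mmu_piR_038356 had 17, 25 and 48 counts in PTM libraries and 0 in the 9 smooth muscle libraries. The PTM mean of 1.48 rpm was at least 90.6-fold higher than the 3 counts that 0 allows over the 9 libraries together. mmu_piR_039057 had 25, 34 and 30 counts in PTM, 20, 22 and 0 in Sertoli and 12, 18 and 5 in Leydig libraries, and 0 in smooth muscle libraries. Its mean was at least 90.3-fold higher in PTM (edgeR adjusted p = 0.000831), at least 40.5-fold in Sertoli (0.00243) and at least 31.5-fold in Leydig cells (0.00408). mmu_piR_038062 had 16, 24 and 131 counts in PTM libraries and 1 in smooth muscle libraries. Its count in PTM 3 was far above the other 2.

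The remaining one, novel_pir23012, lay in the ERVL-MaLR copy chr7:69886500-69886824 of the chromosome 7 locus that was low in Germ 2. It had 1028, 36.4 and 923 rpm in the Germ libraries, 22, 48 and 76 counts in PTM, 25, 28 and 0 in Sertoli and 27, 0 and 0 in Leydig libraries. It was listed at 0 in the smooth muscle libraries (edgeR adjusted p = 0.00398 for PTM against smooth muscle). For a predicted entry 0 can hide up to 9 reads per library, so no fold is given.

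Sertoli cells were higher than smooth muscle for 83 of the 303 members and lower for 0, where 19.9% of all entries were higher. With no filter 38 of 3631 members (1.05%) were called, under the 5.82% of all entries. Leydig cells were higher for 104 members and lower for 0, where 20.1% of entries were higher, and with no filter for 44 (1.21%, against 5.40%). Of the 13 members that passed on the smooth muscle libraries alone, 1 was called higher in Sertoli cells and 1 in Leydig cells. Of the 2275 entries that passed in this way, 11.6% and 10.6% were called higher. Without Sertoli 1, 40 of 296 tested members were higher in Sertoli cells, and without Leydig 1, 25 of 280 were higher and 1 was lower in Leydig cells. Leaving out a single PTM library gave 48 to 53 for Sertoli and 66 to 69 for Leydig cells, with 208 to 234 members tested. For Sertoli cells piRNA counts as library size gave 33, and a fit over all 21 libraries 132. The median log2 differences of the 303 were 1.98 and 2.26, and over all entries 0.56 and 0.35. Whether PTM cells differed from Sertoli or Leydig cells was not tested here.

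For the mean of the 3 testicular somatic types against smooth muscle, 224 of the 303 members were higher and 0 lower, where 28.0% of all entries were higher, and with no filter 172 of 3631 (4.74%, against 5.12%). Of the 13 members that passed on the smooth muscle libraries alone, 5 were called higher, against 16.2% of the 2275 such entries. The largest fitted differences were those of mmu_piR_039057, mmu_piR_038356 and novel_pir23012, given above, and of novel_pir25544 and novel_pir157. All 5 were listed at 0 in the smooth muscle libraries and passed the minimum through testicular libraries alone. This fixed the direction of their calls, and in part their p-values. For the 3 predicted ones, 0 stands for fewer than 10 reads in a library. novel_pir25544, at chr9:67720353-67720800 in the locus of Mir7241 and Mir7242, had 178, 267 and 149 rpm in the Germ libraries. It had 23, 25 and 23 counts in PTM, 11, 0 and 0 in Sertoli and 13, 12 and 0 in Leydig libraries (edgeR adjusted p = 0.0065). novel_pir157, at chr10:40900945-40901341, is a member through Germ 3 alone, with 0.463, 1.03 and 43.4 rpm. Its counts of 16, 14 and 30 in PTM libraries were as large as the 12 and 26 of Germ 1 and Germ 2, and its call for Sertoli cells rested on 17 counts in Sertoli 1 and 0 in the other Sertoli libraries (edgeR adjusted p = 0.0421, lost in 17 alternatives).

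In Leydig cells the largest fitted difference was that of novel_pir22837, an ERVL copy at chr7:126591308-126591438 inside Il27, the gene of an interleukin subunit. It had 0, 32 and 10 counts in Leydig and 17, 0 and 0 in PTM libraries. Sertoli and smooth muscle libraries were listed at 0 (edgeR adjusted p = 0.0409 for Leydig against smooth muscle, lost in 11 alternatives). It passed the minimum through Leydig and PTM libraries alone, so the p-value was in part fixed by the minimum. For a predicted entry 0 stands for fewer than 10 reads. Its Germ rates were 8.87, 59.2 and 7.05 rpm, highest in Germ 2.

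The members with the highest mean over the 18 other libraries were mmu_piR_022956, mmu_piR_031037 and mmu_piR_000140. mmu_piR_022956 was found in every library, at 0.759 to 22.9 rpm outside germ cells with a median of 3.10 rpm, and at 218, 68.2 and 81.1 rpm in the Germ libraries. mmu_piR_000140 stood at 7.18, 13.6 and 18.6 rpm in PTM libraries, with a median of 0.368 rpm over the 18, and at 187, 191 and 53.0 rpm in the Germ libraries. For each of the 3 the lowest Germ library stayed above the highest other library.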

How the data were processed

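Small RNA of 7 cell types was sequenced in 3 libraries each. The authors deposited a table with whole-number read counts and TPM per entry. Per the submitters' processing notes Bowtie2 and mm10 were used, but what each did, how piRNAs were predicted and how tags with several matches were assigned is not given in the sources used here. Deposited counts were used as they stood, and the TPM values, made by the authors, were not used. Members, lists and tests were chosen with earlier results of these data known. Rates were counts per 1000000 counts of the library. The 18 libraries other than Germ were fitted in edgeR 4.0.16 (R 4.3.3, robust quasi-likelihood, library totals without TMM, 1 coefficient per type, 12 residual degrees of freedom), and the fit was tested on simulated data. Named members follow a rule: the 10 highest in Germ, 3 on each side of each threshold, the 3 most and least variable, the 3 highest elsewhere, and the 5 called members with the largest difference per contrast. The miRNAs and loci described, and the tests on members passing in smooth muscle libraries, were chosen after their values were seen. Loci join copies under 50 kb apart. Genes are from GENCODE vM21 (GRCm38, the same assembly as mm10). Alternatives were TMM, RLE, DESeq2 1.42.0, no filter, all 21 libraries, piRNA entries only, a replicate block, other thresholds of the rule and each library left out. piRNA counts as library size and catalogued members alone were added after seeing the data. A miRNA at 1 locus is not reported here. Floors of 3 counts cover counting error only.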

Additional observations from a re-analysis of the deposited data

How the results depend on the processing

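In place of 4038 members, a rate of at least 5 gave 6746, a rate of at least 20 gave 2198, rates per 1000000 piRNA counts gave 10525, and leaving out 1 Germ library gave 3608 to 4623. A ratio of 5 or 20 and the highest type mean in place of the mean of 18 kept the count within 1.5 times. Per 1000000 piRNA counts the summed level was 752968 in Germ, 38690 in PTM, 9395 in Sertoli, 15170 in Leydig, 5245 in VSMC, 6821 in ISMC and 4721 in TSMC, with Germ and PTM again first and Leydig above Sertoli. Without the filter 834 members (PTM), 38 (Sertoli) and 44 (Leydig) were called against smooth muscle, and 3772 entries of all kinds for PTM, with 3631 members tested in place of 303. With all 21 libraries 132 members were called for Sertoli, and with piRNA counts as library size 33. Over piRNA entries alone, which leaves fewer entries to test, 839, 455 and 573 entries were called for the testicular mean, Sertoli and Leydig. Counted in either direction, leaving out each library in turn gave 171 to 286 members for PTM, 40 to 88 for Sertoli, 26 to 113 for Leydig (25 higher and 1 lower without Leydig 1) and 152 to 232 for the testicular mean. With the replicate block 43 members were called for Sertoli and 53 for Leydig, beside 267 for PTM and 189 for the testicular mean. The labels do not pair the libraries, and they were not treated as paired. Over 45 pairs with the same replicate number the correlation of deviations ran from -0.249 to 0.314, with 14 above 0.1. Its median was 0.0402 (-0.0267 for unlike numbers), and 10 of 18 libraries correlated best with their own number. These values cannot exclude pairing. The cause of the changes between settings was not tested. Of 517 values of the 20 results for named members, 479 kept their call and 38 lost it, with 17 of the losses for novel_pir157 in Sertoli and 11 for novel_pir22837 in Leydig cells. Members without 10 counts in 3 of the 18 libraries were tested only in the fit without the filter, and predicted members cannot be read there below 10 counts.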
